A study of Homo sapiens with 4 samples.

Results

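A set of 10 genes that identify fibroblasts and other stromal cells was described across spheroids of 4 human colon cell lines: PDGFRA, PDGFRB, DCN, LUM, PDPN, THY1, ENG, FAP, NT5E and MME. They were chosen by symbol, and all 10 were found among the 58740 genes of the table. The question was which stromal surface and matrix markers the HCEC-1CT library holds and which it lacks. HCEC-1CT derives from normal human colon and carries CDK4 and TERT as immortalising genes, and its label gives it as an epithelial cell. The cancer lines are HCT116 and DLD-1, both from primary colorectal tumours, and SW620, from a nodal metastasis. The labels give the genotype of all 4 lines as WT and name no treatment. Each line was grown as spheroids for 7 days in the same medium with 10% fetal bovine serum, and RNA was pooled from 2 plates of 24 wells. Each line has 1 library, so no test was possible, and the 3 cancer lines are not replicates of each other.

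Fibroblasts are recognised by a set of proteins rather than by a single one. The platelet-derived growth factor receptors pass on growth signals to stromal cells, with PDGFRA typical of fibroblasts and PDGFRB also typical of pericytes, the cells that wrap small vessels. Decorin and lumican are secreted proteoglycans that bind collagen fibrils, and podoplanin, THY1, endoglin, FAP, NT5E and neprilysin sit on the cell surface. None of these is exclusive to fibroblasts, since endoglin is also a protein of endothelium, podoplanin of lymphatic endothelium, and NT5E and neprilysin of several epithelia.

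Values are FPKM, fragment counts scaled to transcript length and to library size, and are given in the order HCEC-1CT, HCT116, DLD-1 and SW620. A gene is called 4-fold higher or lower from the ratio of FPKM + 1 in 2 libraries, with at least 1 FPKM in the higher one. Of 14495 genes tested in all 3 comparisons, 3.85% were higher in HCEC-1CT than in all 3 cancer lines and 3.45% lower. Steps in the low values correspond to about 23300000 to 29500000 fragments per library, and 13289 to 14654 genes reached 1 FPKM. The HCEC-1CT library was low in the epithelial markers that its label would call for. Of 15 colon epithelial markers, 7 were listed at 0 in it and 3 reached 1 FPKM, against 12, 14 and 13 in the cancer lines. Their summed level was 10.1, 1747, 6048 and 7112 FPKM. In bulk RNA, fewer cells of a type and less RNA per cell cannot be told apart.

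All 10 stromal markers were present in HCEC-1CT, and 9 of them stood above 10 FPKM. The library lacked none of them, and the lowest was THY1 at 5.67 FPKM. HCT116 and DLD-1 each held 2 of the 10 at 1 FPKM or more and SW620 held 3, and the ones held differed from line to line. The summed level of the 10 genes was 1099, 32.1, 60.2 and 52.5 FPKM. HCT116 and DLD-1 owed most of their sum to NT5E, and SW620 to MME and LUM.

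**Figure D1:**
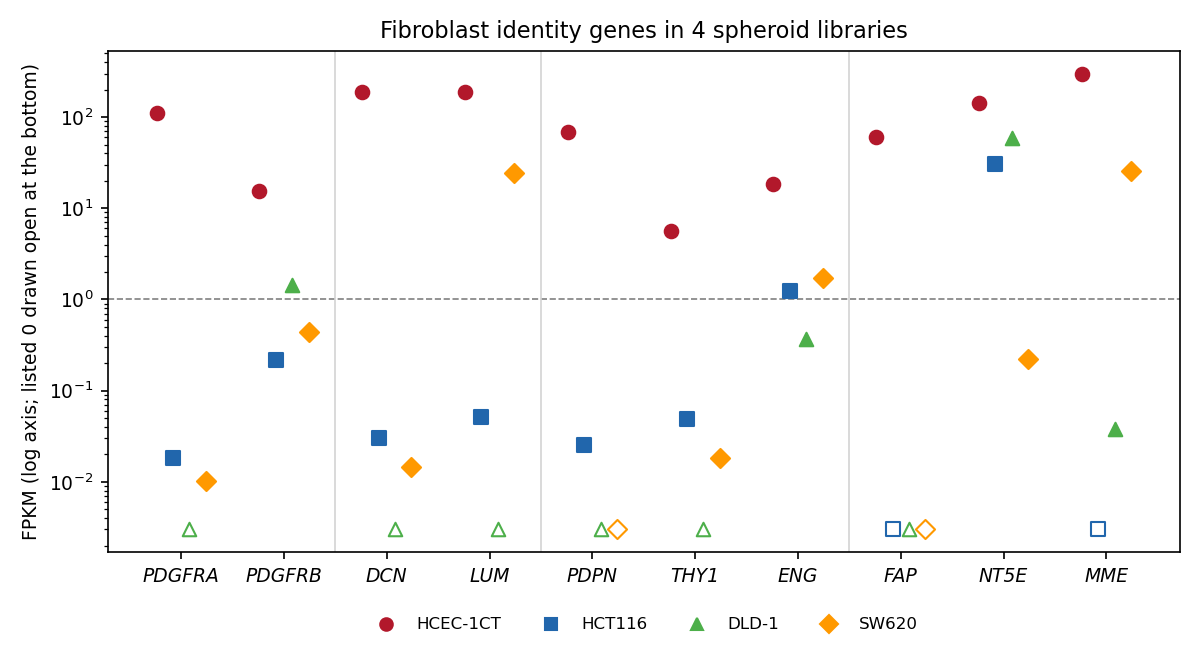
FPKM of the 10 genes (log axis) in each of the 4 libraries, grouped as receptors, proteoglycans, surface glycoproteins and surface enzymes. Each point is 1 library, open points at the bottom are values listed at 0, and the dashed line marks 1 FPKM. HCEC-1CT is the highest library for every gene, and NT5E, LUM and MME are the genes with a cancer line above 10 FPKM.

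The receptor genes were both highest in HCEC-1CT, with PDGFRA well above PDGFRB. PDGFRA, the alpha receptor (chromosome 4, 54229097 to 54298247 in hg38, ENSG00000134853), was listed at 109.7, 0.0180, 0 and 0.0102 FPKM. The values in HCT116 and SW620 correspond to about 3 and 2 fragments, so the gene was at the edge of detection in both. PDGFRB, the beta receptor (chromosome 5, 150113837 to 150155872, ENSG00000113721), stood at 15.5, 0.219, 1.43 and 0.435 FPKM. It was low but detected in every cancer line, at about 28, 156 and 48 fragments. The ratio of HCEC-1CT to DLD-1 for PDGFRB was 10.8.

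The genes for PDGF ligands did not follow their receptors. Of the 4 ligand genes and the co-receptor NRP1, 4 reached 1 FPKM in HCEC-1CT. NRP1 stood at 35.9, 2.60, 3.43 and 5.35 FPKM. It was the 1 of the 5 genes 4-fold higher in HCEC-1CT than in every cancer line, against 3.85% of all genes tested. PDGFC, a ligand of the alpha receptor, was listed at 13.3, 13.2, 2.05 and 0 FPKM. PDGFA, another ligand of that receptor, stood at 3.64, 16.002, 1.99 and 45.5 FPKM, so the SW620 library held the most ligand and almost no receptor transcript.

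To show the sequence at which these genes begin, the stretch directly before an annotated transcript start is given for 4 members. For PDGFRA, PDGFRB and ENG this is the outer end of the annotated gene. For MME it lies inside the gene, before MME-203, the most abundant transcript, whereas MME-211 starts at 155024124 and stood at 0.255 FPKM in HCEC-1CT. The sequences are from RefSeq (GRCh38.p14), and 6 of the 10 genes matched an entry: PDPN, MME, PDGFRA, PDGFRB, NT5E and ENG. DCN, LUM, THY1 and FAP had no match. The NT5E window lies wholly in exons of the gene, so none of it is printed. For PDPN, the window before 13585460 is free of exons of the gene but is not shown. Each printed sequence is written 5′ to 3′ on the strand of the gene. Capitals mark matches on either strand to the GC box GGGCGG, the CCAAT box, the TATA box letters TATAAA or the AP-1 type motif TGANTCA.
PDGFRA (chr4:54229043-54229096, plus strand): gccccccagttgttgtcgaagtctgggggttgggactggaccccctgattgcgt
PDGFRB (chr5:150155873-150156095, minus strand): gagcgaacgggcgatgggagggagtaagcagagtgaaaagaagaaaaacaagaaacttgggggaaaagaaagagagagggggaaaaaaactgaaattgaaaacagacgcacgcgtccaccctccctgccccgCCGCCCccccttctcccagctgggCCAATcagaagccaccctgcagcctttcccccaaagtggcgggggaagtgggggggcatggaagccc
ENG (chr9:127854757-127854908, minus strand): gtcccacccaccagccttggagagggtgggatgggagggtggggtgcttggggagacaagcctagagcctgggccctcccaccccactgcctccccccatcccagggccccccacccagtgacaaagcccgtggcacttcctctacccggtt
MME (chr3:155079422-155079646, plus strand): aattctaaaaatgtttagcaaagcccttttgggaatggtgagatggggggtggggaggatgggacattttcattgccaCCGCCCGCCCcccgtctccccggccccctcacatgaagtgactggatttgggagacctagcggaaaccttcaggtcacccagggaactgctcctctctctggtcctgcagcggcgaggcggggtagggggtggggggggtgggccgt

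Over the 250 bases before the RefSeq start, these windows differed in letters. The MME window held 2 overlapping matches to GGGCGG, the PDGFRB window 1 match to GGGCGG and 1 to CCAAT, and the ENG window none of the 4 motifs. The PDGFRA window held 1 match to TGANTCA, in bases that are not printed, and none of the other motifs. The 6 genes have 12 RefSeq entries, and these windows belong to 1 entry per gene. Another PDGFRA start, at 54233960, has 2 matches to GGGCGG and 1 to CCAAT in its window. Another MME start, at 155080011, likewise has 2 matches to GGGCGG and 1 to CCAAT. Of all 35114 RefSeq windows of that length, 42.6% hold GGGCGG, 32.0% CCAAT, 10.7% TATAAA and 6.57% TGANTCA. The NT5E window had 28 CG pairs, more than in 84.1% of windows, and the ENG window 7, more than in 41.1%. These are descriptions of letters, and no binding or methylation was measured.

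The proteoglycan genes were among the most abundant members. DCN, decorin (chromosome 12, 91140484 to 91183123, ENSG00000011465), was listed at 191, 0.0303, 0 and 0.0144 FPKM. LUM, lumican (chromosome 12, 91102629 to 91111831, ENSG00000139329), was listed at 188, 0.0518, 0 and 24.5 FPKM. The 2 genes stood at nearly the same level in HCEC-1CT, with 95% counting intervals of 188.1 to 193 and 185 to 190.6 FPKM that overlap. They parted in SW620, where LUM rested on about 2115 fragments and DCN on about 3. The ratio of HCEC-1CT to SW620 was 7.67 for LUM.

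The rest of this proteoglycan family was nearly absent from HCEC-1CT. Of the 12 other small leucine-rich proteoglycans, 0 reached 1 FPKM there and 5 were listed at 0. BGN, biglycan, stood at 0.140 FPKM, FMOD, fibromodulin, at 0.486, and ASPN, asporin, was listed at 0. In the cancer lines FMOD reached 2.27 FPKM in SW620 and PODNL1 reached 6.76 in DLD-1. DCN and LUM lie side by side, 28.7 kb apart, in a row of 4 genes of the family. The other 2 genes of that row, KERA (keratocan) and EPYC (epiphycan), were listed at 0 in HCEC-1CT.

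The neighbours of other members were mostly unlike them. KIT, the receptor gene next to PDGFRA, lies 359.7 kb away and was listed at 0, 0.0455, 23.5 and 0.0134 FPKM. DLD-1 therefore held KIT and no PDGFRA, and HCEC-1CT the reverse. CSF1R, a macrophage receptor gene 0.464 kb from PDGFRB, stood at 0.197, 0.170, 0.0636 and 1.80 FPKM. GCG, the glucagon gene between FAP and its relative DPP4, was listed at 0 in all 4 libraries. Of the nearest protein-coding genes on either side, BTG1, 957 kb from DCN, had 136 FPKM in HCEC-1CT. SNX14, 9.70 kb from NT5E, had 29.1 FPKM there, and PRDM2, 82.2 kb from PDPN, had 13.8 FPKM. FPGS, 0.684 kb from ENG, stood at 20.2, 12.7, 16.1 and 21.0 FPKM. The wider neighbour sets plotted were chosen after their values were seen.

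**Figure D2:**
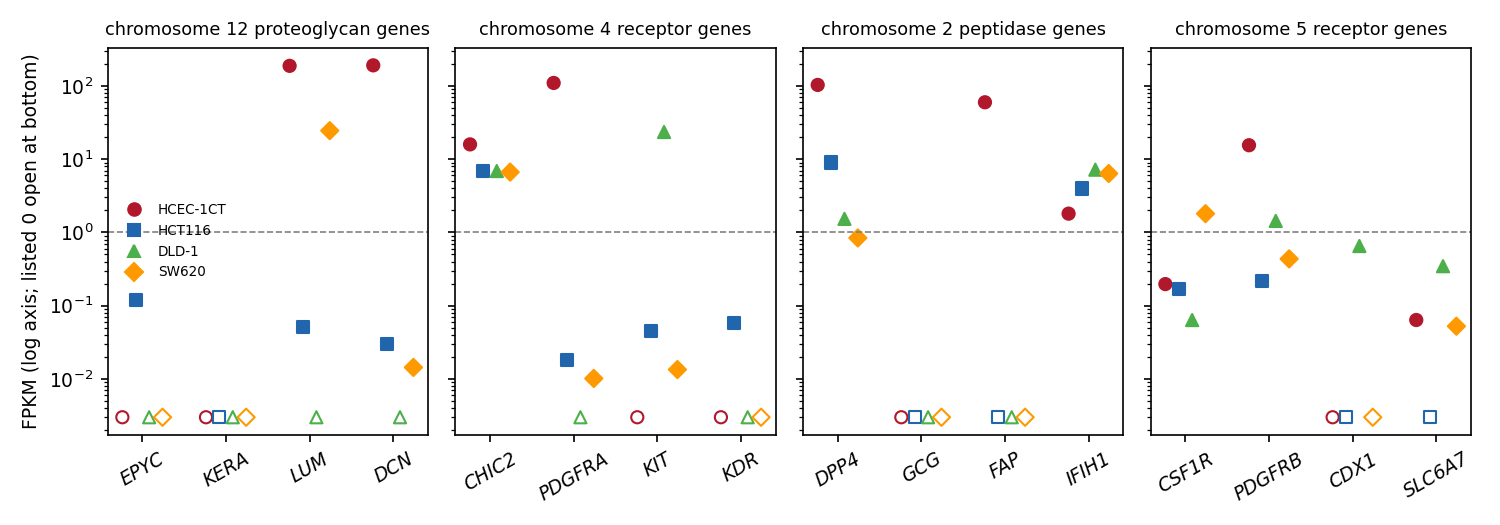
FPKM (log axis) of 4 members' genomic neighbours in chromosomal order, 1 point per library, with values listed at 0 drawn open at the bottom and 1 FPKM dashed. LUM and DCN are high in HCEC-1CT while KERA and EPYC are listed at 0 there, and PDGFRA is high there while KIT and KDR are listed at 0.

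Among the surface glycoproteins, PDPN had the widest separation. PDPN, podoplanin (chromosome 1, 13583465 to 13617957, ENSG00000162493), was listed at 67.8, 0.0255, 0 and 0 FPKM, with the HCT116 value corresponding to about 2 fragments. Its binding partners were not limited to HCEC-1CT. Of 8 partner genes, 6 reached 1 FPKM in HCEC-1CT. There were 0 that were 4-fold higher there than in all 3 cancer lines, against 3.85% of all genes tested. With so few genes, that count says little about the partners as a set. MSN, moesin, which links podoplanin to actin, stood at 138, 47.0, 0.0217 and 181 FPKM. EZR, the related linker ezrin, ran the other way at 7.73, 412, 279 and 188 FPKM. In HCEC-1CT, CD9, CD44 and LGALS8 reached 98.7, 96.4 and 33.9 FPKM, and CLEC1B, the platelet receptor for podoplanin, was listed at 0 in all 4 libraries.

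THY1 was the weakest marker of HCEC-1CT. THY1, a glycoprotein that binds integrins (chromosome 11, 119417378 to 119424985, ENSG00000154096), was listed at 5.67, 0.0489, 0 and 0.0185 FPKM. Its level in HCEC-1CT exceeded that of 41.7% of the genes at 1 FPKM or more, whereas MME exceeded 99.1%. With about 583 fragments the gene was well covered, so counting error does not limit that reading. Among its 9 partner genes, the HCEC-1CT library held the integrin genes ITGB1, ITGA5 and ITGB5 at 261, 172 and 68.6 FPKM, with the proteoglycan gene SDC4 also at 68.6. ITGB3, an integrin beta chain that binds THY1, stood at 30.2, 0.590, 0.0214 and 0.0254 FPKM. It was the 1 of the 9 partners 4-fold higher in HCEC-1CT than in all 3 cancer lines, against 3.85% of all genes tested.

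ENG was higher in HCEC-1CT, and most of the value filed under it in the cancer lines was assigned to another transcript. ENG, the TGF-beta co-receptor endoglin (chromosome 9, 127815012 to 127854756, ENSG00000106991), stood at 18.4, 1.23, 0.370 and 1.71 FPKM. The transcript table files under this gene an unannotated locus that it names as antisense, at 127819180 to 127820563. That locus held 0.662, 0.714, 0.356 and 1.59 FPKM. The annotated ENG transcripts alone held 17.7, 0.520, 0.0140 and 0.121 FPKM. In DLD-1 the locus made up 96.2% of the gene value, in SW620 92.9% and in HCT116 57.9%, against 3.603% in HCEC-1CT. AL162586.1, an annotated antisense gene over ENG, stood at 0.648, 1.26, 0.329 and 2.03 FPKM. No source used here gives the strand handling, so reads of the 2 strands cannot be told apart.

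Within ENG, HCEC-1CT held mainly the shorter coding form. ENG-201, with 14 exons and 625 residues, stood at 14.0 FPKM and ENG-202, with 15 exons and 658 residues, at 3.26 FPKM. The 2 forms differ in whether the last intron is kept. Of 9 partner genes of endoglin, 7 reached 1 FPKM in HCEC-1CT. ACVRL1, the ALK1 receptor that signals with endoglin, stood at 10.2, 0.526, 0.0520 and 1.43 FPKM. MMP14, the protease that sheds endoglin, stood at 441, 9.27, 1.63 and 2.78 FPKM. ACVRL1 and MMP14 were the 2 partners 4-fold higher in HCEC-1CT than in all 3 cancer lines, against 3.85% of all genes tested. TGFBR2, BMPR2 and TGFBR3 stood at 35.7, 17.4 and 17.3 FPKM in HCEC-1CT. The ligand genes GDF2 and BMP10 were listed at 0 in every library.

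The surface enzyme genes each had a pattern of their own in the cancer lines. FAP, a serine protease of activated fibroblasts (chromosome 2, 162170684 to 162245151, ENSG00000078098), stood at 59.8 FPKM in HCEC-1CT and was listed at 0 in all 3 cancer lines. It was the 1 member with this pattern. Its close relative DPP4 stood at 103, 9.02, 1.53 and 0.841 FPKM. Of 8 related peptidase genes, DPP4 included, 6 reached 1 FPKM in HCEC-1CT. DPP7, DPP9 and DPP8 were at 38.4, 24.0 and 14.9 FPKM for HCEC-1CT and between 9.05 and 89.2 FPKM in the cancer lines. PREP and PRCP were lower in HCEC-1CT, at 8.89 and 9.89 FPKM, than in the cancer lines, at 17.5 to 34.7 FPKM, and DPP6 and DPP10 were listed at 0 in HCEC-1CT.

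NT5E was the member that HCT116 and DLD-1 both held above 10 FPKM. NT5E, the enzyme that makes adenosine from AMP outside the cell (chromosome 6, 85449584 to 85495791, ENSG00000135318), stood at 144, 30.5, 58.4 and 0.225 FPKM. The ratio of HCEC-1CT to the line was 4.71 for HCT116, 2.46 for DLD-1 and 639 for SW620. One transcript, NT5E-201, made up 93.9%, 92.1%, 95.4% and 95.6% of the gene value. HCT116 and DLD-1 thus had the same main form as HCEC-1CT, and the share in SW620 rests on about 22 fragments. Of 11 genes around NT5E in the adenosine pathway, 6 reached 1 FPKM in HCEC-1CT. ENTPD2, which breaks down ATP outside the cell, was listed at 0, 13.9, 9.14 and 3.29 FPKM, and the adenosine transporter SLC29A1 stood at 2.49, 16.7, 22.6 and 12.02 FPKM. DPP4 holds adenosine deaminase at the cell surface. It was the 1 of the 11 called 4-fold higher in HCEC-1CT than in all 3 cancer lines, against 3.85% of all genes tested. The adenosine receptor gene ADORA1, at 4.70, 1.14, 0.113 and 0.569 FPKM, was not called on the FPKM + 1 scale, and it was picked after its values were seen.

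MME was the most abundant member in HCEC-1CT and was also held by SW620. MME, the peptidase neprilysin (chromosome 3, 155024124 to 155183729, ENSG00000196549), was listed at 300.4, 0, 0.0377 and 25.6 FPKM. It ranked 124 among all genes of the HCEC-1CT library. The SW620 value rested on about 3486 fragments, so it is not a trace. Of the 6 other neprilysin family genes, only ECE1 reached 1 FPKM in HCEC-1CT, at 38.3, 25.01, 19.8 and 40.3 FPKM. The antisense gene MME-AS1, which overlaps MME, stood at 8.44, 0, 0.0151 and 0.656 FPKM.

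The 2 lines with MME differed in its transcripts. In HCEC-1CT, MME-203 stood at 141 FPKM and MME-201 at 120 FPKM, a ratio of 1.17. In SW620 they stood at 20.3 and 0.552 FPKM, a ratio of 36.8. Both encode the same 750 residues from 23 exons. MME-203 starts at 155079647, directly after the stretch printed above, and MME-201 starts at 155080399. MME-203 also runs on to 155183708 and is 5622 bases long, against 2360 bases for MME-201, and which end of the transcript differs was not tested. MME-208, which starts at 155079856, made up 4.56% of the gene value in HCEC-1CT and 7.76% in SW620.

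**Figure D3:**
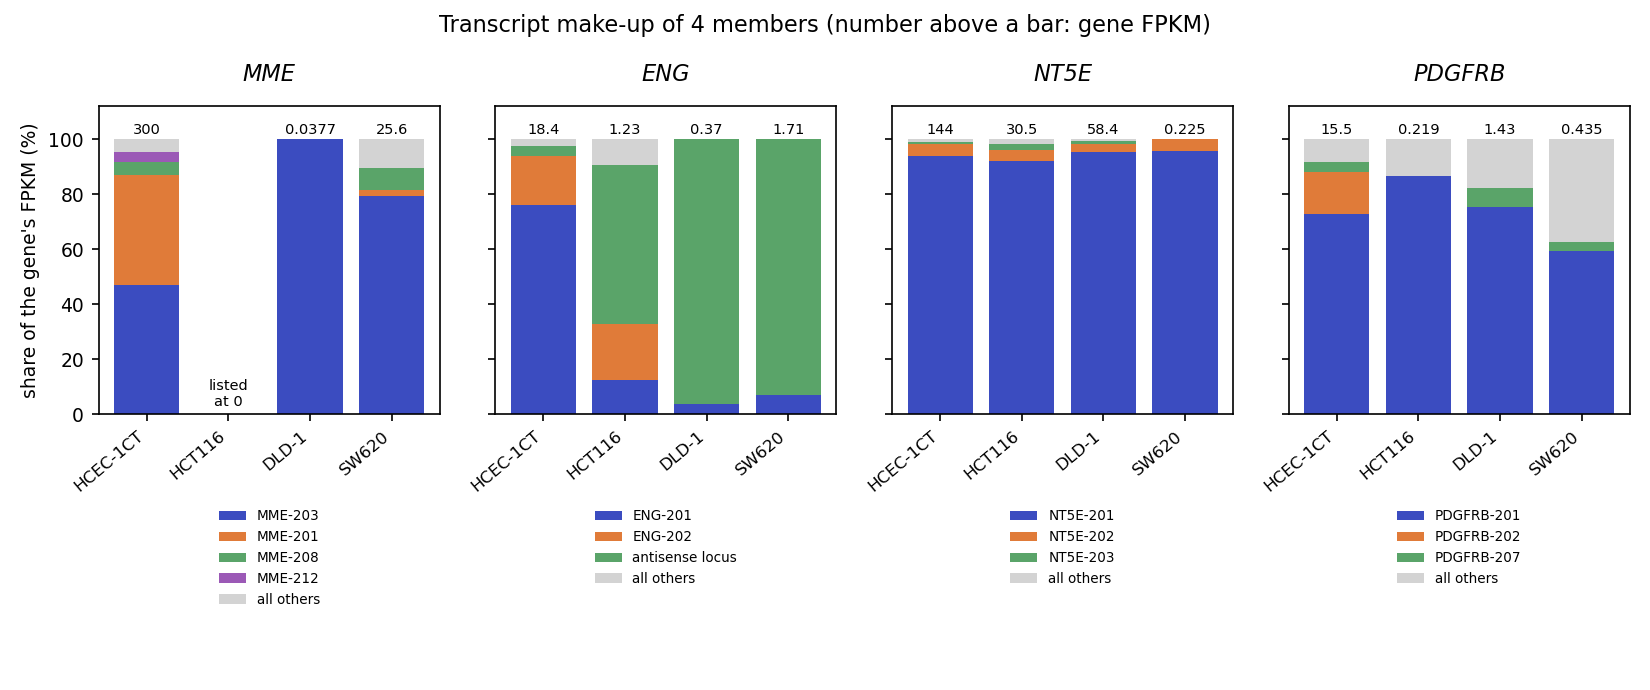
Share of the gene's summed FPKM (percent) held by the main transcripts of MME, ENG, NT5E and PDGFRB in each library, with the gene's FPKM above each bar. MME-201 is large in HCEC-1CT and small in SW620, the antisense locus fills most of ENG in DLD-1 and SW620, and NT5E-201 dominates in all 4 libraries.

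The other members differed in how far a single transcript carried them in HCEC-1CT. LUM was a single transcript, LUM-201, at 100% of its value, and a single form made up 94.9% of THY1. PDGFRB-201 and PDGFRA-201, which encode the full receptors of 1106 and 1089 residues, made up 72.6% and 72.0%. DCN was spread over 18 transcripts above 0, with DCN-201 at 38.9%. PDPN-201 held 45.8% and PDPN-202 31.8%, forms of 238 and 236 residues. FAP had the lowest share in protein-coding transcripts, 58.9%, and FAP-208, a form with a retained intron, held 20.8%. Short transcripts gain FPKM from few fragments, and the division of fragments among overlapping transcripts is an estimate by the authors' program. A second gene overlapping PDGFRA on its own strand, AC058822.1, stood at 11.99, 21.6, 15.7 and 18.3 FPKM and so did not follow it.

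Set against all genes, the members were far out in each comparison, apart from NT5E in DLD-1. For NT5E there, 11.1% of genes tested had a lower ratio to HCEC-1CT. In the comparison with HCT116, 10 of the 10 members were higher in HCEC-1CT, against 5.73% of all genes tested. With DLD-1 it was 9 of 10, against 6.3%, and with SW620 10 of 10, against 6.36%. In all 3 comparisons together it was 9 of 10, against 3.85%, and NT5E was the exception. In the other direction, 0 of 10 members were lower in HCEC-1CT than in HCT116, DLD-1, SW620 or all 3, against 10.3%, 10.4%, 10.3% and 3.45% of genes. Only 2, 2 and 3 of the 10 reached 1 FPKM in HCT116, DLD-1 and SW620. The other members passed the filter through HCEC-1CT alone and could not be called lower, so this count was largely fixed beforehand. The counts called higher rest on the same entry. The comparisons share the HCEC-1CT library and are therefore not independent, and the members were chosen as fibroblast markers with earlier results of these data known.

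Relative to HCEC-1CT, the members had a median log2 ratio of -6.00 for HCT116, -6.01 for DLD-1 and -4.72 for SW620. The same median over all genes tested was 0.39, 0.43 and 0.29, and the differences between the medians were -6.39, -6.44 and -5.02. The ratio moved least for NT5E in DLD-1, at -1.29, and most for MME in HCT116, at -8.24, where MME is listed at 0 and the size depends on the pseudocount. With a pseudocount of 5 FPKM the members called in all 3 comparisons were 6 of 10, and PDGFRB, THY1 and ENG dropped out. Over the whole table, 259 of 14495 genes tested were called at that setting.

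**Figure D4:**
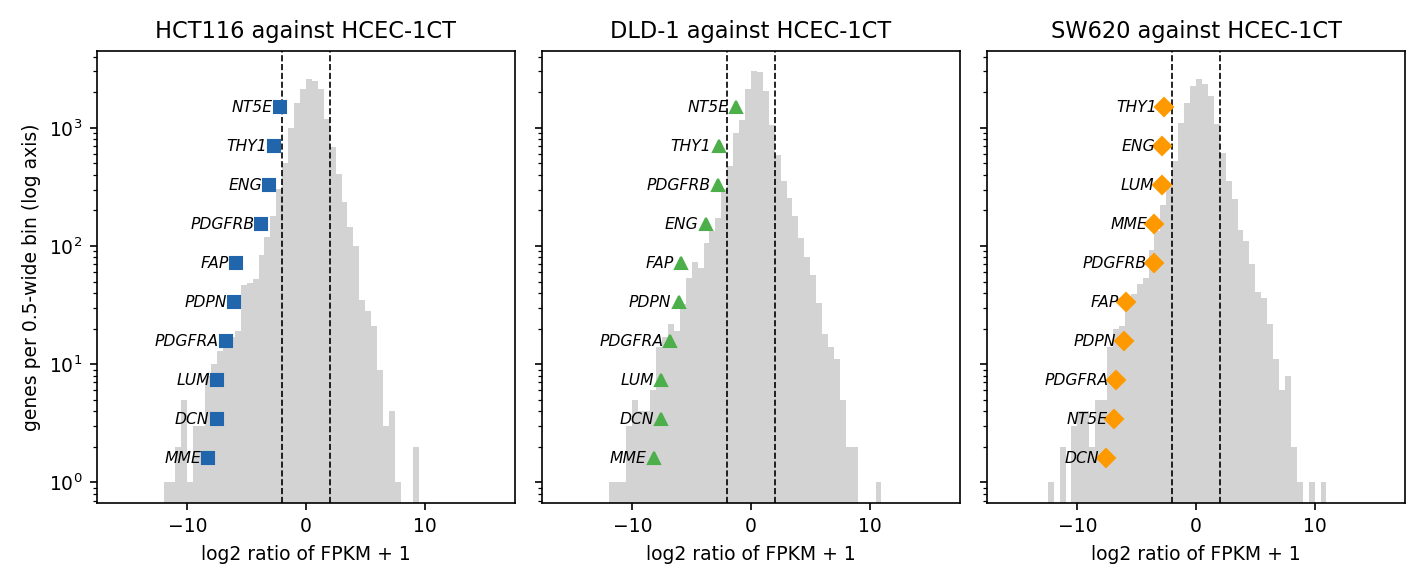
Log2 ratio of FPKM + 1 of each cancer line against HCEC-1CT. Grey bars count all genes with at least 1 FPKM in either library (log axis), coloured points are the 10 members at their ratio with height only spreading the labels, and dashed lines mark 4-fold. NT5E in DLD-1 is the 1 point inside the 4-fold lines.

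Within HCEC-1CT the order of levels was MME, DCN, LUM, NT5E, PDGFRA, PDPN, FAP, ENG, PDGFRB and THY1. The highest exceeded the lowest by 52.9-fold. Apart from DCN and LUM, neighbours in this order had counting intervals that did not overlap, but the spread between cultures of a line is unknown. Over the 4 libraries, the members closest to each other were PDPN and FAP, at a distance of 0.18 on the log2(FPKM + 1) scale, followed by LUM and MME at 0.68. LUM and MME are the pair that HCEC-1CT shares with SW620.

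The protein-coding genes with the most similar levels were found for the 9 members above 10 FPKM in HCEC-1CT. Distances were taken over 4 libraries and 13776 protein-coding genes, and they describe level as much as pattern. DCN was closest to COL1A2, at 0.13, then to HGF, the hepatocyte growth factor, at 0.20 and COL3A1 at 0.29. HGF was listed at 166, 0.0132, 0 and 0.00581 FPKM. PDGFRA was closest to RIPOR3, EDNRB and TMEM119, at 0.21 to 0.35. Among the genes near PDPN were BASP1, at 0.061, and FST, the activin-binding protein follistatin, at 0.085. FAP was closest to SEMA6D, at 0.012. ENG was closest to POU2F2 and then RGS5, at 0.33 and 0.47, and PDGFRB to SH3RF3, HOXB2 and DENND2A. MME was closest to the member LUM, then to CSF2 and TNC. NT5E had no close companion, and its nearest gene, MT1E, lay at 2.11.

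Other fibroblast genes were held in part. Of 26 further matrix and surface genes, 17 reached 1 FPKM in HCEC-1CT. In that library 13 were 4-fold higher than in all 3 cancer lines, against 3.85% of all genes tested, and S100A4 was 4-fold lower. The median log2 ratio of that list was -2.98, -4.93 and -2.46 in the 3 cancer lines. The highest were COL6A2 at 655, 70.2, 0 and 13.0 FPKM, the filament protein VIM at 572, 1.16, 0.858 and 223, COL6A1 at 539, 68.8, 0.149 and 50.1, and COL1A2 at 208, 0, 0 and 0. In all, 6 of the list were listed at 0 in HCEC-1CT, among them FBLN2, MFAP5 and PI16. MFAP5 and PI16 are known from adventitial fibroblasts, and DPT and CD34, 2 further markers of those cells, stood at 0.0461 and 0.0256 FPKM. DPT and CD34 were picked after their values were seen.

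Genes that separate fibroblast subsets of the colon were also split. Of 15, 10 reached 1 FPKM in HCEC-1CT. In that library 5 were 4-fold higher than in all 3 cancer lines, against 3.85% of all genes tested. The HCEC-1CT levels of WNT5A, IL33, F3 and GREM1 were 497, 230.2, 203 and 146 FPKM. BMP4, a ligand made by subepithelial fibroblasts, was lower in HCEC-1CT than in all 3 cancer lines, at 0.261, 52.7, 131 and 64.1 FPKM. BMP5, CCL13 and CCL19 were listed at 0 in HCEC-1CT. The median log2 ratio of the list was -1.44 in each comparison.

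Mesenchymal transcription factors were present with the surface markers. Of 22, 14 reached 1 FPKM in HCEC-1CT. In that library 8 were 4-fold higher than in all 3 cancer lines and 0 were lower, against 3.85% and 3.45% of all genes tested. FOXF1, a factor of the gut mesenchyme, stood at 89.3, 2.78, 0.128 and 0 FPKM. TCF21, a fibroblast factor, stood at 74.9, 0.0434, 0 and 0.0345, PRRX1 at 48.1, 0, 0.0592 and 0.262, and MEIS1 at 38.3, 0.00774, 0 and 0.928 FPKM. HAND1, MEOX1 and EBF2 were listed at 0 in HCEC-1CT. Their median log2 ratio was -0.97, -1.69 and -1.68.

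Markers of the other cells that carry these proteins were held in part by HCEC-1CT. Of 9 smooth muscle and myofibroblast genes, 6 reached 1 FPKM and 0 were 4-fold higher than in all 3 cancer lines, against 3.85% of all genes tested. Their summed level was 23.3, 24.0, 4.27 and 4.43 FPKM. ACTA2, smooth muscle actin, stood at 10.6, 14.4, 1.30 and 0.713 FPKM, and MYH11 and DES, defining genes of mature muscle, at 0.0182 and 0.0151 FPKM in HCEC-1CT. Of 7 pericyte genes, 4 reached 1 FPKM. RGS5, at 20.6, 1.62, 0.431 and 1.09 FPKM, was the 1 that was 4-fold higher than in all 3 cancer lines, against 3.85% of all genes tested. CSPG4 was also highest in HCEC-1CT, at 10.0, 7.74, 0.0620 and 0.302 FPKM. The summed pericyte level was highest in HCT116, at 39.3, 74.1, 16.4 and 6.53 FPKM. NOTCH3 and MCAM stood at 32.3 and 32.4 FPKM in HCT116 and at 4.31 and 3.73 FPKM in HCEC-1CT. Apart from ACTA2, the smooth muscle and myofibroblast genes were named after their values were seen.

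Endothelial and blood cell lists each had 2 genes at 1 FPKM or more in HCEC-1CT. Of 12 genes of vascular endothelium, 2 reached 1 FPKM in HCEC-1CT, PECAM1 at 5.32 and TEK at 3.06 FPKM, while CDH5 was listed at 0 and VWF stood at 0.130 FPKM. PECAM1 was thus at about the level of the member THY1, and what part endothelial cells have in the ENG or PDPN value was not tested. The summed level was 10.1, 3.601, 3.61 and 16.9 FPKM, highest in SW620. Of 5 lymphatic genes 0 reached 1 FPKM in HCEC-1CT, with LYVE1 listed at 0. Of 11 blood cell genes, CD14 at 9.40 and CD68 at 7.56 FPKM passed, and PTPRC, the pan-leukocyte gene, stood at 0.00629 FPKM. No gene of the mesothelial or glial lists reached 1 FPKM there.

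**Figure D5:**
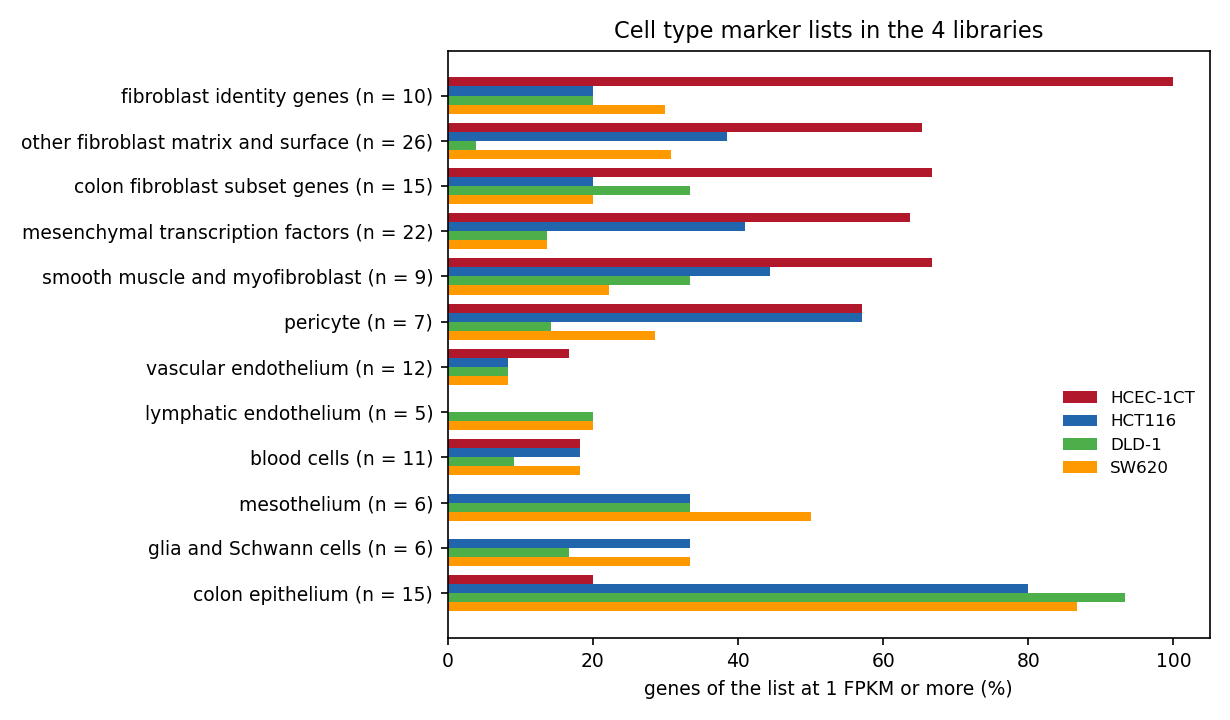
Share of each marker list at 1 FPKM or more (percent) in each of the 4 libraries, with the number of genes in the list. HCEC-1CT holds 100% of the 10 fibroblast identity genes and the largest share of the other fibroblast, subset and transcription factor lists. It also holds the largest share of the smooth muscle and vascular endothelium lists. For pericyte genes it ties with HCT116, and for blood cell genes with HCT116 and SW620. Its share of the colon epithelial list is the smallest.

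The members THY1, NT5E and ENG together form the positive surface panel by which mesenchymal stromal cells are defined in culture. All 3 reached 1 FPKM in HCEC-1CT, against 2 for HCT116 and 1 each for DLD-1 and SW620. With annotated ENG transcripts alone, ENG was under 1 FPKM in HCT116 and SW620 as well. Of the 7 genes whose proteins that definition requires to be absent, 6 were under 1 FPKM in HCEC-1CT. CD34 stood at 0.0256 and PTPRC at 0.00629 FPKM, and ITGAM and HLA-DRA were listed at 0. The exception was CD14, a receptor for bacterial lipopolysaccharide, at 9.40, 0.376, 0.409 and 0.101 FPKM. These are transcripts in 1 library and not the protein readings on which the definition rests.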

How the data were processed

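RNA sequencing was done on 1 library for each of 4 established cell lines. The values are FPKM per gene and per transcript, deposited by the authors. The build hg38 and the tools HISAT2 and FastQC are named, per the submitters' processing notes. The sources used here do not give the program that made the FPKM, its annotation, the strand of the libraries or filters. Both tables also hold values of 1 further column, which fits no sample's labels and was left out. Of the 58740 gene IDs, 58275 matched GENCODE 29, which gave gene types and transcript lengths, and gene values equalled their transcript sums to within 0.00220 FPKM.

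Depth was read from the step between low values in genes with 1 transcript, and fragments were estimated as FPKM times length times depth. Intervals are exact Poisson at 95% and cover counting error only. Ratios are log2(FPKM + 1), which understates the change of low genes. Without replicates no p-value was computed. The script that applies the fold rule was tested on simulated data, which checks its arithmetic and not the choice of limit. The members and 23 other lists were chosen with earlier results of these data known. All members were named; from the other lists, up to 4 genes at 10 FPKM or more in HCEC-1CT, up to 3 that were 4-fold higher in a cancer line, and up to 3 listed at 0. Genes of these lists named outside this rule, such as ACVRL1, PREP, PRCP, VWF, PTPRC, BGN and FMOD, were chosen after their values were seen. Alternatives changed the pseudocount, fold limit, detection limit, scaling and gene value. Python 3.11.15, pandas 2.3.3 and scipy 1.17.1 were used.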

Additional observations from a re-analysis of the deposited data

How the results depend on the processing

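No paired analysis was possible because each line has 1 library, and for the same reason no library could be left out. The members called in all 3 comparisons were 9 in the main setting, beside 558 of 14495 genes tested. With a pseudocount of 0.1 FPKM they were 9, beside 979 genes over the whole table. They were 9 with TPM, median-ratio and protein-coding scaling, beside 907, 631 and 584 genes. With the most abundant transcript they were 9, and genes over the whole table were not counted for that setting. At a 2-fold limit they were 10, beside 1325 genes, and with a pseudocount of 5 FPKM they were 6, beside 259. None of the 153 alternative ratios of single members changed direction. In size, 60 of them were counted as moved and 93 as the same. The size of the ratios followed the pseudocount where a line is at or near 0: for FAP in HCT116 it was -5.92, and -9.23 and -3.70 with 0.1 and 5 FPKM. Scaling also moved ratios away from 0 FPKM: for NT5E in HCT116 it was -2.20, and -2.67 on the TPM scale. Members at a 5 FPKM limit were 1 in HCT116 and 1 in DLD-1, and at 0.1 FPKM they were 5 in SW620. With a pseudocount of 0.1 FPKM the median log2 ratios of HCT116, DLD-1 and SW620 were -9.15, -9.32 and -7.20, with 5 FPKM -3.78, -3.78 and -3.51, and on the TPM scale -7.25, -7.28 and -5.78. Without a pseudocount, the scalings shift the log2 ratios of HCT116, DLD-1 and SW620 by -0.46, -0.09 and -0.28 on the TPM scale, -0.38, -0.42 and -0.30 under median-ratio scaling, and -0.11, -0.08 and -0.14 under protein-coding scaling, and with a pseudocount the shift differs from gene to gene. Over the whole table, genes higher in HCEC-1CT than in HCT116, DLD-1, SW620 and all 3 were 1760, 1814, 1880 and 979 with a pseudocount of 0.1 FPKM, 376, 452, 410 and 259 with 5 FPKM, and 2436, 2412, 2637 and 1325 at 2-fold. In the main setting they were 933, 1039, 1023 and 558, of 16280, 16504, 16095 and 14495 genes tested. On the TPM scale they were 1679 in HCT116, 1664 in SW620 and 907 in all 3. With the antisense locus left out, an alternative chosen after seeing the data, the ENG ratios were -3.62, -4.21 and -4.06. With 1 library per line, the spread between cultures is unknown for every value.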
